A study of Rattus norvegicus with 24 samples.

Results

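Single neurons of the rat dorsal root ganglion (DRG) were compared between 2 sets of sham-operated libraries of one series, the 4 dye-labelled sham libraries (Xin, 4, 10 and 18) and the 7 added sham libraries (S1 to S7). Members were all cells of these 11 libraries with at least 500 genes, at least 1000 unique molecular identifiers (UMIs, tags that count each captured mRNA once) and less than 5% of UMIs from the 13 mitochondrially encoded mRNA genes. The filter kept 215 of 216 labelled and 503 of 528 added cells, hence 718 of the 1433 cells that passed it in the 24 libraries of the series. Counts were summed per library, so that the library and not the cell was the replicate. The remaining 13 libraries hold dye-labelled neurons after spared nerve crush (SNC), and their levels are given beside some genes. In SNC the tibial and common peroneal branches of the sciatic nerve were crushed and the sural branch was left intact.

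All animals were male Sprague-Dawley rats of about 200 g with no transgene, and a sham operation exposed the sciatic nerve without injuring it. Per the study's methods, the dyes DiI and DiO were injected through glass micropipettes into separate branches of the sciatic nerve 2 weeks before the operation, and neurons from L4 to L5 DRG on the operated side were picked by mouth pipette and read with a Smart-seq2 protocol that carries UMIs. The labelled sham libraries give dye counts of 12 and 12 cells (Xin), 24 and 24 (4 and 10) and 48 and 48 (18), and give no day after the operation. The added libraries are labelled as new libraries of neurons from dorsal root ganglia at 0 days (S1, S2 and S7), 1 day (S3 and S6), 3 days (S4) and 7 days (S5) after the sham operation, with no dye counts. The protocol text is shared by all libraries and speaks of labelled neurons and of at least 5 rats per time point, but no label ties a library to an animal, so p-values measure only the spread between these libraries. No library links both sets. The dye injection, the choice of cells, the day and the time at which a set was made therefore cannot be told apart.

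The UMI sums were 4002503 to 27504367 per library (median 11521701) in labelled sham and 14004136 to 40732975 (median 32123851) in added sham. On the first principal component of log2 CPM (UMIs of a gene scaled to a common library total), which held 47.0% of the variance, the labelled libraries lay at -76.7 to -30.2 and the added libraries at 23.7 to 30.2. S1 and S2 stood apart on the second component (64.6 and 57.5), which held 31.8%. No cell was identical to another, and the same 96 barcode names serve the cells of both sets. Pan-neuronal genes summed to between 10639 and 17199 CPM in every library, whereas Eno2, a neuronal glycolytic enzyme, and Gpx4, an antioxidant enzyme that every cell uses, were below 1 CPM in all 11. A value at or near 0 in these tables can therefore be a gap in the counting.

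DRG neurons are the cell bodies of sensory fibres. When their axon in the nerve is cut or crushed, a transcription programme led by Atf3, Jun and Sox11 is switched on, growth proteins such as Gap43 and Sprr1a and peptides such as galanin and VIP are made, and many ion channels and receptors of the uninjured neuron are reduced. Jun and Fos family proteins pair to form AP-1, which binds the DNA letters TGACTCA. Dimers with Atf3 or CREB bind TGACGTCA.

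Promoter sequences are shown for some of the genes that stood highest or lowest below, since these letters could be looked up in them. The genes shown were selected by hand and include every one of those with a match, but few of those without. They are the 250 bases before the RefSeq start site (build GRCr8, gene strand, 5′ to 3′). Capitals mark TGACTCA or TGACGTCA on either strand, so that TGACTCA read from the other strand appears as TGAGTCA. Sprr1a (chr2:180752626-180752875, minus strand) held 2 matches, 147 and 117 bases before the start. Hpd (chr12:39041996-39042245, plus strand), Hamp (chr1:95300272-95300521, minus strand) and Ucn (chr6:30957836-30958085, plus strand) held 1 each, at 135, 107 and 110 bases. Gal (chr1:210084573-210084822, minus strand) held none, and F2r (chr2:28620580-28620829, minus strand), a gene that was lower in labelled sham, held 1 at 194 bases.
Sprr1a: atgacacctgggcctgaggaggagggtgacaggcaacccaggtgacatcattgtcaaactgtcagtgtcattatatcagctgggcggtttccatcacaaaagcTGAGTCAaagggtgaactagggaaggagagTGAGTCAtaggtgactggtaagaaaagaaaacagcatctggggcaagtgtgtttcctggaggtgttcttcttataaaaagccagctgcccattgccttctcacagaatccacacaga
Hpd: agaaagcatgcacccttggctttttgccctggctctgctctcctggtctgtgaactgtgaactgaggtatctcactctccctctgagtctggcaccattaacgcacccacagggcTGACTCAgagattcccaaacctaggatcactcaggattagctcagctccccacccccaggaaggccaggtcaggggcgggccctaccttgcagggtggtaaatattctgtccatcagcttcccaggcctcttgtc
Hamp: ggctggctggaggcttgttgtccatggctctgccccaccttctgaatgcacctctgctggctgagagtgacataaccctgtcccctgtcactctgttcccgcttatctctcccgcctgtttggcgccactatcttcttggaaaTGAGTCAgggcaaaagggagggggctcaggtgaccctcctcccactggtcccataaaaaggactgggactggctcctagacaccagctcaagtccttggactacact
Ucn: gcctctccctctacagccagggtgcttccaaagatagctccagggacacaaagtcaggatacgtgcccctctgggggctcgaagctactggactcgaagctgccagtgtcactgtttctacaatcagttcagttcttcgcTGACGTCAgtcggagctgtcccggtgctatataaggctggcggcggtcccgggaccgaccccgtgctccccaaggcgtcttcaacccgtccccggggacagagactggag
Gal: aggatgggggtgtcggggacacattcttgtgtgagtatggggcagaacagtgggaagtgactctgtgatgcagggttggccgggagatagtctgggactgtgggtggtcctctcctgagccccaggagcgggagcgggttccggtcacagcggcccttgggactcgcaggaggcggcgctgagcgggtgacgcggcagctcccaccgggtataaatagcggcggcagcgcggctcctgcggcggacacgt
F2r: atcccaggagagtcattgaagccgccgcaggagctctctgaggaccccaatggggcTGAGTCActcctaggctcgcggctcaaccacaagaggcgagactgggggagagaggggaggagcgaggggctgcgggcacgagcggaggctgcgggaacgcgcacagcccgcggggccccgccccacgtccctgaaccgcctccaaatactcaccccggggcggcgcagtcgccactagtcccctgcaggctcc

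TGACTCA stood in 3.98% of all 27457 promoter windows and TGACGTCA in 1.70%. Of the 10895 tested genes with a window, 3.18% held TGACTCA. Of the 12 genes that stood highest, 8 had a window, and Hamp, Hpd and Sprr1a held TGACTCA while Ucn held TGACGTCA. Of the 12 that stood lowest, 8 had a window, and only F2r held a match. Among genes called higher by more than 3 on the log2 scale, 17 of 113 windows (15.0%) held TGACTCA, among them Mmp3, Mmp12 and Hsd3b3. Among genes called lower by more than 3 it was 8 of 233 (3.43%). Among all genes called higher it was 76 of 1880 (4.04%), and among all called lower 74 of 2717 (2.72%). In the list of injury and regeneration genes 2 of 19 windows held it, those of Nts and Sprr1a. A match is a run of letters and not a shown binding site.

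The question of the comparison is which genes differ between neurons of 2 kinds of sham library. Labelled sham neurons carried high mRNA of genes that DRG neurons switch on after axon injury, including Sprr1a, Gal, Csrp3, Atf3 and Gap43, and more mRNA of ribosomal, respiratory chain and proteasome proteins. They carried less mRNA of many potassium channels, of the sodium channel Scn10a, of several clock genes and of single receptors such as F2r. Of 15791 genes tested with edgeR's quasi-likelihood test, 2599 (16.5%) were higher and 3816 (24.2%) lower in labelled than in added sham at an adjusted p under 0.05 (Benjamini-Hochberg), 6415 (40.6%) in all. At an unadjusted p under 0.05 it was 7812 (49.5%). Without overlap between the groups, 1728 genes (10.9%) stood higher and 2708 (17.1%) lower. Changes past a log2 fold change of 3 were called for 176 genes (1.11%) upward and 463 (2.93%) downward. The median log2 fold change over all tested genes was -0.15. Each gene list below is to be read against it and against the 16.5% of genes called higher and 24.2% called lower. The higher share of the calls was 40.5%, and it was 29.3% with limma on mean CPM per cell (1935 higher, 4658 lower). In sums over cells, fewer cells of a type and less RNA per cell cannot be told apart.

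**Figure D1:**
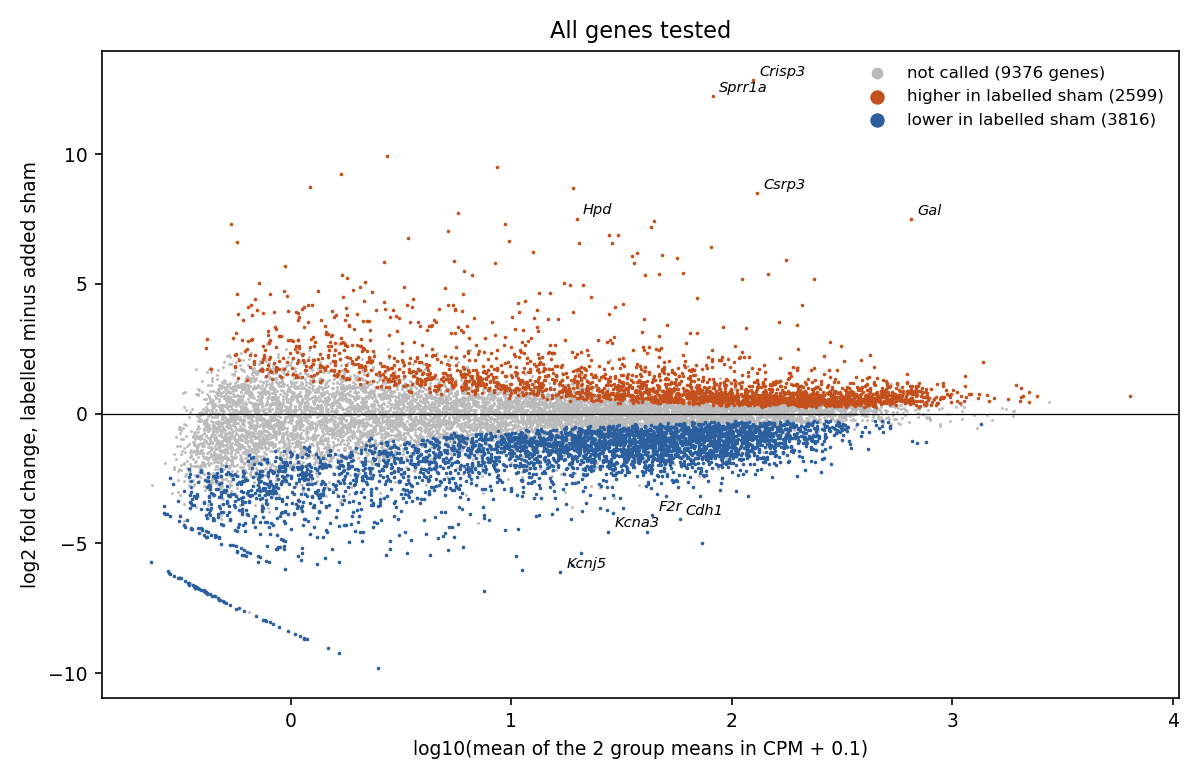
Log2 fold change of labelled over added sham (y axis) against log10 of the mean of both group means in CPM + 0.1 (x axis) for the 15791 genes tested. Orange points are the 2599 genes called higher and blue points the 3816 called lower by edgeR, with Crisp3 and Sprr1a at the top, and the sloping line of blue points at the lower left holds genes with hardly any or no UMI in labelled sham.

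The injury programme stood apart in every labelled library. Sprr1a, a small proline-rich protein of regrowing axons, was at 316 CPM in Xin, 67.0 in 4, 169 in 10 and 101 in 18. In the added libraries it was at 0 to 0.206 CPM, and its 6 UMIs there were all from 1 cell of S7. The groups did not overlap, and the log2 fold change was 12.22 ± 0.74 (SE; adjusted p = 9.67e-07), a value that rests on those 6 UMIs. Gal, which encodes the peptide galanin, was at 2598, 622, 1159 and 773 CPM in Xin, 4, 10 and 18, against 1.58 to 21.5 CPM (median 5.76) in added sham. It was higher by 7.49 ± 0.68 on the log2 scale (adjusted p = 4.56e-05), with no overlap. Csrp3, the muscle LIM protein, was at 445, 161, 228 and 200 CPM against 0.200 to 1.39 CPM (median 0.732), and the log2 fold change was 8.49 ± 0.50 (adjusted p = 8.3e-07).

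The transcription factors of the programme differed by less, since added sham neurons also held their mRNA. Atf3 was at 1063, 373, 548 and 499 CPM in Xin, 4, 10 and 18 and at 75.2 to 183 CPM (median 174) in added sham. Every labelled library lay above every added one, and the log2 fold change was 2.06 ± 0.28 (adjusted p = 0.000175). Jun was at 834, 310, 445 and 316 CPM against 164 to 239 CPM (median 209), a log2 fold change of 1.18 ± 0.23 (adjusted p = 0.00146). Sox11 was low in both sets, at 6.70 to 20.7 against 2.13 to 4.44 CPM, and was higher by 1.84 ± 0.34 (adjusted p = 0.00119). Gap43, the growth cone protein, was at 2287, 1408, 1569 and 1474 CPM against 408 to 748 CPM (median 609), and its log2 fold change was 1.47 ± 0.17 (adjusted p = 8.15e-05). Xin held the highest value of each of these 4 genes.

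**Figure D2:**
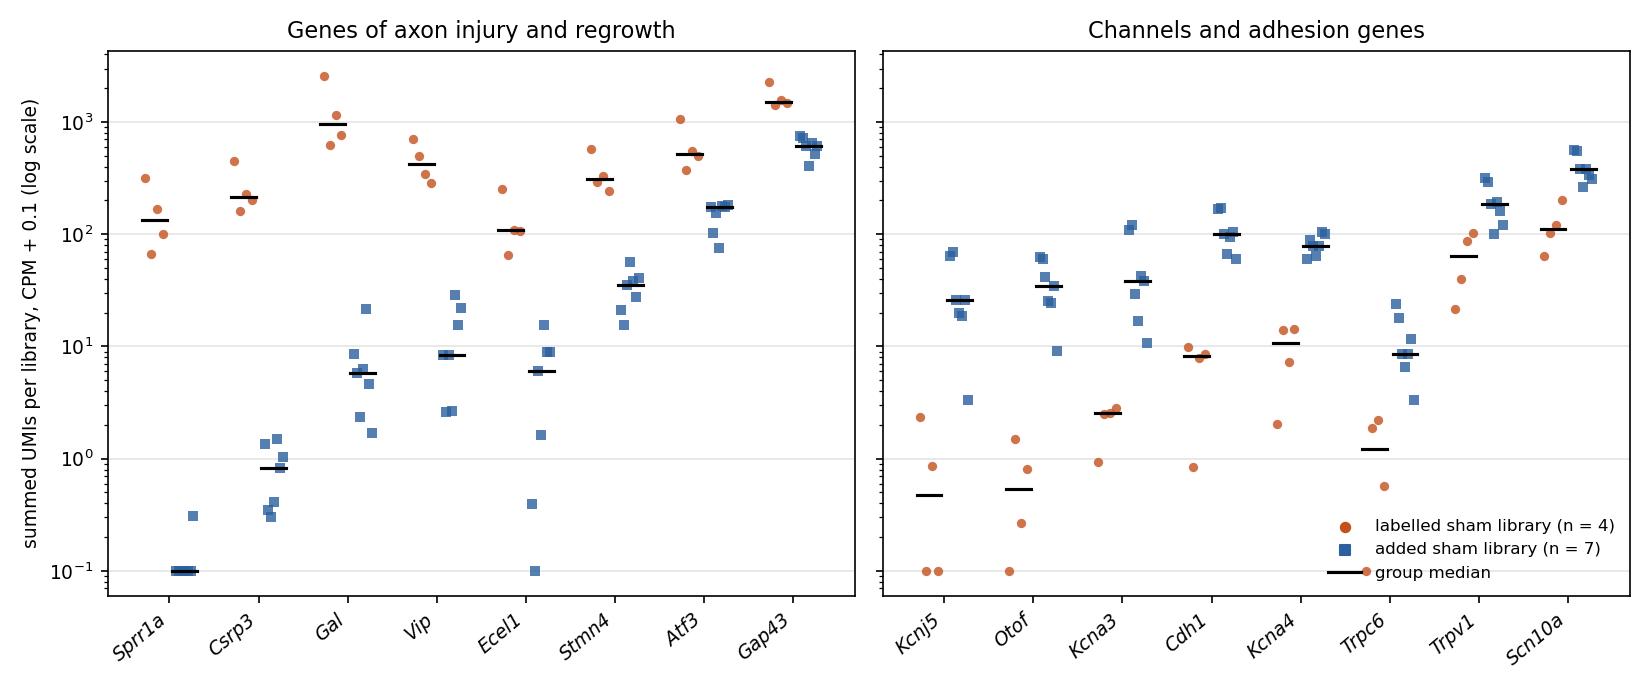
CPM + 0.1 on a log scale (y axis) of 8 injury genes and 8 channel and adhesion genes, with 1 point per library (circles labelled sham, squares added sham) and a bar at each group's median. Sprr1a, Gal and Csrp3 of the 4 labelled libraries lie above all 7 added libraries, and Scn10a lies below them, while Trpv1 overlaps.

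Of the 26 tested genes in the list of injury and regeneration genes, 19 (73.1%) were called higher and 1 lower, with a median log2 fold change of 1.62, and 18 stood higher without overlap. That median was 1.52 with limma on mean CPM per cell. It was 0.90 over the 22 members tested in the cells of the Tac1 range described below. The peptide Vip (5.19 ± 0.60, adjusted p = 8.03e-05) was at 289 to 713 CPM against 2.50 to 28.5 CPM. Ecel1, a membrane endopeptidase of injured neurons, was at 64.9 to 251 against 0 to 15.5 CPM (4.48 ± 0.88, adjusted p = 0.00166). Stmn4, a tubulin-binding stathmin, was higher by 3.42 ± 0.32, and Reg3b, a secreted lectin, by 3.09 ± 0.38. Gadd45a (2.25), Lmo7 (2.13), Hspb1 (2.01), Cacna2d1, the calcium channel subunit bound by gabapentin (1.78), Flrt3 (1.25), Tubb3 (1.10), Smad1 (1.08) and Basp1 (0.77) were also higher. The single member called lower was Nptx2, a synaptic pentraxin, at 91.6 to 191 against 162 to 392 CPM (-0.9998 ± 0.26, adjusted p = 0.00894). Nts, Gpr151, Klf6, Crh, Tmem158 and Socs3 did not pass the test. Npy, a peptide of injured large neurons, had 0 UMIs in all 11 libraries and was not tested.

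Beside Sprr1a, Csrp3 and Gal, the 12 genes with the largest upward change came from many families, and 1237 genes met the same criteria of level, call and lack of overlap. Crisp3, a cysteine-rich secretory protein, was at 462, 150, 251 and 131 CPM in Xin, 4, 10 and 18 and at 0 to 0.0751 CPM in added sham. Its log2 fold change of 12.85 ± 0.55 (adjusted p = 6.4e-08) rests on 6 UMIs in added sham. Cldn4, a claudin of epithelial junctions, was higher by 6.58 ± 1.08. Hpd, an enzyme of tyrosine breakdown, was higher by 7.51 ± 1.05, but its level ran from 0.652 CPM in library 4 to 117 CPM in Xin. Ucn, the stress peptide urocortin, was at 51.0 to 168 against 0 to 1.16 CPM (7.20 ± 0.70), and Hamp, the iron hormone hepcidin, at 7.45 to 99.8 against 0 to 1.18 CPM (6.90 ± 0.93). Stac2, which binds voltage-gated calcium channels, was higher by 7.42 ± 0.42, the cytokine Il24 by 6.87 ± 0.78 and the cholecystokinin receptor Cckbr by 6.56 ± 0.76. Adjusted p-values of these 12 genes ran from 6.4e-08 to 0.000543 in edgeR. Chosen after their values were seen, Tspo, the translocator protein of the outer mitochondrial membrane, was at 237 to 599 against 3.57 to 8.24 CPM (5.91 ± 0.32), and Tgfbi, a matrix protein, at 96.2 to 265 against 0 to 7.22 CPM (6.41 ± 0.87).

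Cells were thinned to 20000 UMIs each, which left out 11 labelled and 10 added cells. On average 54.4% of labelled sham cells per library held a Sprr1a UMI (33.0 to 86.4%), against 0.304% of added sham cells (0 to 2.13%). For Gal the shares were 95.3% and 6.73%, for Csrp3 60.1% and 2.10%, for Vip 76.1% and 9.27%, and for Crisp3 55.0% and 0%. Atf3 was in 91.0% and 73.8% of cells, a difference that did not pass (exact permutation p = 0.0606, adjusted p = 0.0707). At least 3 of the 6 genes Sprr1a, Gal, Csrp3, Ecel1, Vip and Stmn4, picked after their values were seen, were found in 88.4% of labelled cells (77.8 to 100%) and in 1.71% of added cells (0 to 5.38%). The exact permutation test over libraries gave its smallest possible p for the shares of Sprr1a and Gal, 0.00606 (two-sided, adjusted p = 0.00848 over 14 shares). The 14 shares include those of genes picked after their values were seen, many also at that smallest p, which lowers the adjusted p. The shares of the genes picked for their values entered that adjustment but are given here only as a description. Without thinning the shares with at least 3 of the 6 were 98.7% and 22.9%.

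**Figure D3:**
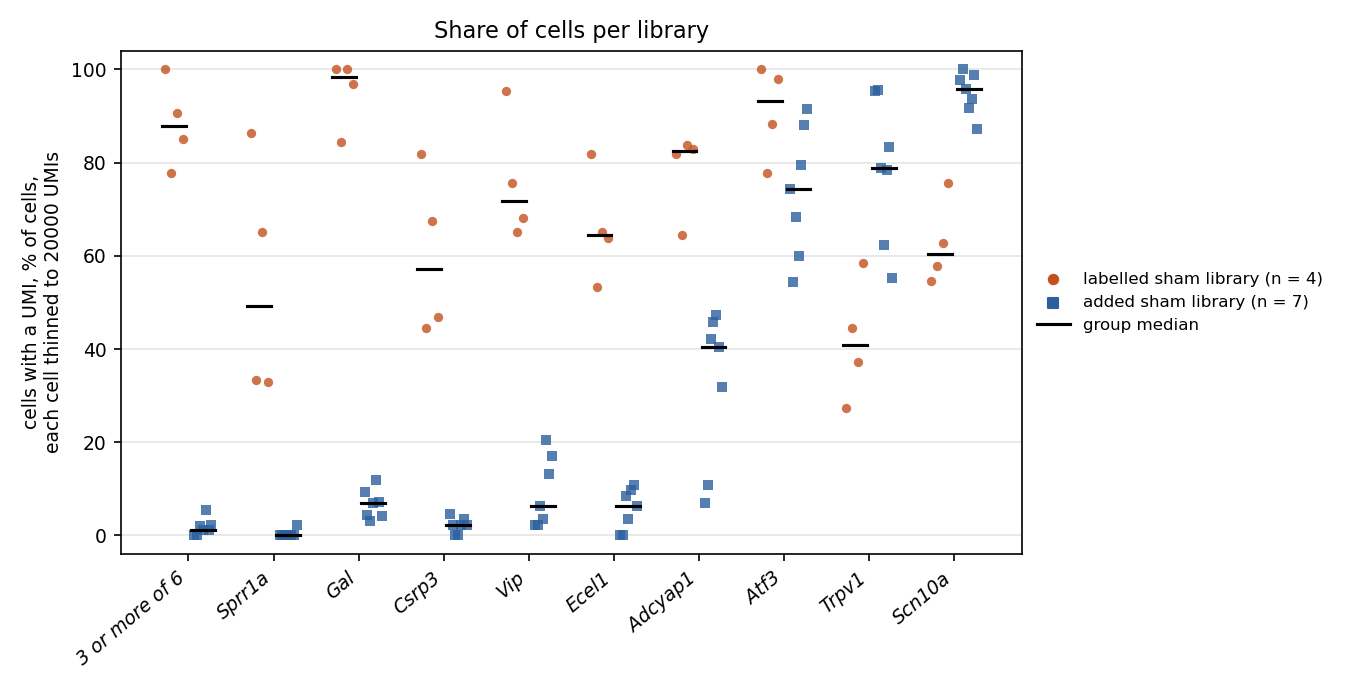
Share of cells with a UMI (y axis, percent of cells thinned to 20000 UMIs) for 9 genes and for 3 or more of 6 injury genes, with 1 point per library (circles labelled sham, squares added sham) and a bar at each group's median. The share with 3 or more of 6 genes lies at 77.8 to 100% in labelled sham and at 0 to 5.38% in added sham.

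Labelled sham overlapped in level with the dye-labelled neurons from SNC rats for the genes given here. Each SNC library mixed neurons of crushed and uncrushed branches, most in about equal numbers. Its values are therefore not those of injured neurons alone. On a scale normalized over all 24 libraries, the 13 SNC libraries held 56.5 to 242 CPM of Sprr1a, 541 to 1426 CPM of Gal, 27.3 to 262 CPM of Csrp3, 381 to 691 CPM of Atf3 and 1122 to 1859 CPM of Gap43. Each of these ranges overlaps that of labelled sham and lies above that of added sham. The sham values given above were normalized over the 11 libraries, a different scale. The same holds on the other side for Scn10a (66.4 to 212 CPM in SNC) and Kcnj5 (0 to 1.26 CPM), which overlap labelled sham and lie below added sham. Among thinned SNC cells the share with at least 3 of the 6 injury genes was 79.2 to 100% per library. Labelled sham and SNC libraries share the dye injection, the labelling protocol, sequencing dates and in part the days of reverse transcription, as the study's sample list gives them, and these cannot be told apart.

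Of 22 neuropeptide genes tested, 7 (31.8%) were called higher and 1 (4.55%) lower, with a median log2 fold change of 0.18 that turned to -0.21 with limma on mean CPM per cell and to -0.12 in the cells of the Tac1 range described below. Adcyap1, the gene of the peptide PACAP, was at 397 CPM in Xin, 160 in 4, 381 in 10 and 421 in 18, against 10.5 to 98.1 CPM (median 70.1) in added sham. The groups did not overlap, and the log2 fold change was 2.49 ± 0.45 (adjusted p = 0.00101). It was present in 78.2% of thinned labelled cells and in 32.2% of added cells (exact permutation p = 0.00606). Without thinning the shares were 92.4% and 67.6%, and the difference did not pass (exact permutation p = 0.0788). Pdyn, the dynorphin precursor, was at 2.42 to 38.0 against 0 to 0.686 CPM (5.33 ± 0.82). Nppb, the itch peptide BNP, was higher by 1.83 ± 0.45 with overlapping groups. Peptides that uninjured neurons are known for did not pass. Tac1, the substance P precursor, was at 364, 494, 827 and 1197 CPM against 82.4 to 564 CPM (1.13 ± 0.43, adjusted p = 0.0525), Calca, the CGRP precursor, at 325 to 2228 against 722 to 1317 CPM (0.24 ± 0.34), and Sst at 40.5 to 279 against 26.6 to 239 CPM (0.06 ± 0.54).

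Potassium channel genes were called lower or not at all. Of 63 tested in a list drawn up after values were seen, 24 (38.1%) were lower and 0 higher, with a median log2 fold change of -1.06, and their summed level was 783 to 1401 CPM in labelled and 2414 to 3731 CPM in added sham. Kcnj5, an inward rectifier opened by G proteins, was at 2.24 CPM in Xin, 0 in 4, 0.757 in 10 and 0 in 18, against 3.23 to 69.1 CPM (median 25.6) in added sham. It had the largest downward change of the named genes (-6.09 ± 1.20, adjusted p = 0.00168). Kcnj11 and Abcc8, the pore and the sulphonylurea receptor of the ATP-sensitive potassium channel, were both lower (-5.50 ± 0.95 and -4.43 ± 0.61), at up to 1.02 and 1.96 CPM in labelled sham. Kcna3 was at 0.838 to 2.74 against 10.6 to 121 CPM (-4.54 ± 0.74). Kcna4, the A-type channel of small neurons, was at 1.96 to 14.1 against 60.0 to 105 CPM (-3.09 ± 0.40), and Kcnd3 at 5.03 to 37.3 against 106 to 361 CPM (-3.18 ± 0.49). Kcna2, of large fibres, was at 9.22 CPM in Xin and 70.4 to 174 CPM in the other labelled libraries, against 248 to 512 CPM (-1.82 ± 0.52, adjusted p = 0.0134), a call that was lost without library 10 (-1.63, adjusted p = 0.0534).

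Sodium channel subunits showed 4 lower (28.6%, against 24.2% of all genes) and 0 higher calls among 14 tested, with a median log2 fold change of -0.45. Scn10a, the channel Nav1.8 of nociceptors, was at 64.3, 101.7, 122 and 201 CPM in Xin, 4, 10 and 18, against 266 to 568 CPM (median 381) in added sham. Every labelled library lay below every added one, and the log2 fold change was -1.70 ± 0.30 (adjusted p = 0.000778). Thinned cells with a Scn10a UMI made up 62.7% of labelled and 95.0% of added cells (exact permutation p = 0.00606). Scn11a, the channel Nav1.9, was lower by -1.74 ± 0.40 with overlap, at 43.9 to 159 against 152 to 622 CPM. The subunit Scn4b was lower by -1.44 ± 0.23 without overlap. Scn9a, the channel Nav1.7, was at 328 to 526 against 425 to 597 CPM and did not pass (-0.23 ± 0.14, adjusted p = 0.186).

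Of 14 TRP channel genes tested, 5 (35.7%) were lower and 2 (14.3%) higher, shares not far from those of all genes. Trpv1, the capsaicin and heat receptor, was at 21.5, 39.5, 87.1 and 103 CPM in Xin, 4, 10 and 18, against 100 to 318 CPM (median 188). Only library 18 overlapped the added range, and the log2 fold change was -1.63 ± 0.43 (adjusted p = 0.00875). Trpc6, a cation channel opened by diacylglycerol, was lower without overlap (-3.30 ± 0.73). Trpa1, the receptor for irritants, stood on the other side, at 24.3 to 53.3 against 3.07 to 20.3 CPM (1.84 ± 0.45, adjusted p = 0.00604). Within the ranges of cells described below, edgeR called Trpa1 only in the Tac1 range (1.26, adjusted p = 0.0275). It did not pass in the Nefh range (0.96, adjusted p = 0.374) or in the range low in both markers (0.21, adjusted p = 0.699). In lists drawn up after values were seen, 10 of 22 voltage-gated calcium channel genes (45.5%) were lower and 2 (9.09%) higher. Of 12 nicotinic receptor genes 6 (50%) were lower and 2 (16.7%) higher, and of 28 cadherins 9 (32.1%) and 3 (10.7%). Over all genes 24.2% were lower and 16.5% higher. The nicotinic median of -1.51 turned to 0.94 over the 4 members tested in the Tac1 range.

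The other genes with the largest downward change came from several families, and 1769 genes met the same criteria. Cldn3, a claudin, was at 0 to 1.02 against 5.32 to 36.3 CPM (-6.03 ± 0.87), and Otof, the calcium sensor otoferlin, at 0 to 1.40 against 9.06 to 62.7 CPM (-5.82 ± 0.73). Slc16a12, a monocarboxylate transporter family member, was lower by -5.35 ± 0.80, and the gene of carboxypeptidase M, Cpm, by -4.56 ± 0.64. Cdh1, the gene of E-cadherin, was at 0.745 to 9.78 against 60.3 to 170 CPM (-4.05 ± 0.56). F2r, the thrombin receptor, was at 2.27 to 8.01 against 64.7 to 110 CPM (-3.92 ± 0.37, adjusted p = 4.86e-05). Nog, the BMP antagonist noggin, was lower by -4.06 ± 0.62, and Tex15 by -3.93 ± 0.41. Adjusted p-values of the 12 genes ran from 4.86e-05 to 0.00168 in edgeR.

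Genes that mark DRG neuron types gave calls in both directions for nonpeptidergic and peptidergic neurons. Large fibre and C-fibre low-threshold lists gave few calls, with a lower share below that of all genes (24.2%). Of 22 tested genes of nonpeptidergic and itch neurons, 6 (27.3%) were higher and 7 (31.8%) lower. Gfra2, the neurturin receptor, was lower by -2.69 ± 0.51, Mrgprx3 by -2.82 ± 0.60 and Lpar3 by -3.15 ± 0.76, while Osmr, the oncostatin M receptor, was higher by 2.19 ± 0.41. Of 23 peptidergic genes, 7 (30.4%) were higher and 2 (8.7%) lower. Lists share members, so their counts are not independent, and Gal is in the injury, neuropeptide and peptidergic lists. Arg1, arginase 1, was at 25.8 to 199 against 0.618 to 3.76 CPM (5.38 ± 0.56), and Gfra3, the artemin receptor, at 402 to 781 against 88.5 to 174 CPM (2.04 ± 0.22). Cck was called higher at 0.665 to 34.1 against 0 to 3.97 CPM (3.04 ± 1.13, adjusted p = 0.047), and this call was lost without S2, S3, S5, S7, Xin or 10 in turn (2.29 to 3.11, adjusted p = 0.0510 to 0.154). Of 25 genes of large fibres, 3 (12%) were lower, among them the transcription factor Etv1 (-2.13 ± 0.52), and 0 higher. Nefh, the heavy neurofilament, was at 502, 1004, 693 and 740 CPM against 269 to 2399 CPM (median 947) and did not pass (-0.47 ± 0.48, adjusted p = 0.458). Of the C-fibre low-threshold genes 2 of 10 (20%) were lower, among them Cdh9 (-2.70 ± 0.49). Th, their defining enzyme, stayed at or below 1.09 CPM in all 11 libraries. Mrgprd had 4 UMIs in labelled and 58 in added sham and was not tested. Cd9, a tetraspanin, was at 151 to 332 against 3.82 to 458 CPM (0.01 ± 0.86).

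The mix of cells was compared by ranges of 2 markers. Cells with Nefh at 500 CPM or more made up 54.7% ± 21.9 (SD, n = 4) of labelled and 56.3% ± 35.3 (SD, n = 7) of added libraries (exact permutation p = 0.921), but S4 held 100% and S1 and S2 4.55% and 13.0%. Cells below that value with Tac1 at 500 CPM or more made up 21.7% ± 10.7 (SD, n = 4) and 5.90% ± 4.92 (SD, n = 7), with an exact permutation p of 0.0182 (adjusted p = 0.0545 over 3 ranges). Within the Nefh range, 2203 of 14498 genes (15.2%) were higher and 2951 (20.4%) lower, and within the range low in both markers 2557 of 11976 (21.4%) and 3248 (27.1%). Of the 12 genes with the largest upward change, 11 of 11 tested were called higher in the Nefh range and 12 of 12 in the range low in both, as were 12 of 12 genes with the largest downward change called lower in each. These genes were picked from sums over the same cells, so their calls within the ranges are no independent check. In the Tac1 range, with 4 labelled and 4 added libraries, 401 of 10181 genes (3.94%) were higher and 1203 (11.8%) lower. Sprr1a (11.72 ± 1.45), Gal (5.99 ± 1.21) and Csrp3 (4.99 ± 1.07) were called there too, and Scn10a (-0.98 ± 0.25) was lower. Of the 12 genes with the largest upward change 8 of 8 tested were called there, but of those with the largest downward change only 2 of 5 tested were, Cpm (-1.50), Cdh1 (-1.41) and Nog (-2.61) having adjusted p-values of 0.259, 0.290 and 0.0790. Atf3 (0.82 ± 0.44, adjusted p = 0.230), Gap43 (0.72 ± 0.24, adjusted p = 0.0669), Jun (0.52 ± 0.39), Adcyap1 (0.47 ± 0.42) and Sox11 (-0.41 ± 0.94) did not pass there. Nor did Gfra2 (-0.02, adjusted p = 0.984), Mrgprx3 (-0.31, adjusted p = 0.644) or Lpar3 (-1.46, adjusted p = 0.313). Vip (2.77, adjusted p = 0.0667), Ecel1 (2.51, adjusted p = 0.0608) and Reg3b (3.39, adjusted p = 0.0536) also missed the threshold of edgeR there. The same held for Scn11a (-0.92, adjusted p = 0.228), Scn4b (-0.52, adjusted p = 0.449) and Egr1 (-1.01, adjusted p = 0.0798). Of 94 called and named genes tested there, 39 kept their call, 50 missed the threshold in the same direction and 5 turned sign without a call, and whether the changes differed between ranges was not tested.

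Genes of activity and of daily and hormonal rhythm had more calls downward than upward. Of 24 immediate early genes tested, 9 (37.5%) were lower and 2 higher, with a median log2 fold change of -0.83. That median was -0.52 with limma on mean CPM per cell and -0.14 over the 21 members tested in the Tac1 range. The list overlapped between the groups in its median over members of log2(CPM + 1) minus the gene's mean over the added libraries. This was 0.25 in Xin, -1.34 in 4, -0.75 in 10 and -0.54 in 18, against -0.56 (S2) to 0.33 (S6) in added sham. Egr1 was at 33.5, 9.68, 13.6 and 28.1 CPM against 39.5 to 111 CPM (median 79.4), lower by -1.89 ± 0.36 (adjusted p = 0.00134) and without overlap. The nuclear receptors Nr4a2 (-2.08 ± 0.32) and Nr4a3 (-3.21 ± 0.60) and the AP-1 member Jund (-1.74 ± 0.23) were lower, and Dusp1, a MAP kinase phosphatase, was higher (1.23 ± 0.17). Fos itself was at 326, 95.1, 128 and 236 against 78.8 to 217 CPM and did not pass (0.09 ± 0.32, adjusted p = 0.832). Of 17 clock genes, 8 (47.1%) were lower and 3 higher, with Nr1d1 (-2.14 ± 0.50), Nr1d2 (-1.98 ± 0.36) and Tef (-1.76 ± 0.23) in front. Their summed level was 243 to 259 CPM in labelled and 387 to 511 CPM in added sham. The hour of dissection was not given in the sources used here, and its part was not tested. Of 12 glucocorticoid response genes, 6 (50%) were lower, among them Mt2A (-2.17 ± 0.50) and Klf9 (-1.36 ± 0.19). The 1 member called higher was Cdkn1a, the cell cycle inhibitor p21, at 62.8 to 202 against 9.14 to 20.4 CPM (3.12 ± 0.31), a gene that p53 also drives.

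Cytoplasmic ribosomal protein genes, nuclear respiratory chain genes and proteasome subunits were called higher or not at all. Of 85 cytoplasmic ribosomal protein genes tested, 72 (84.7%) were higher and 0 lower (median log2 fold change 0.79, and 0.35 in the Tac1 range), and their summed level was 30164 to 42417 CPM in labelled and 16245 to 27343 CPM in added sham. The largest changes were those of Rps10l1 (2.24 ± 0.56), Rps9 (2.12 ± 0.60) and Rpl31 (1.60 ± 0.37), and ribosomal genes have many copies in the genome between which reads may be split. Without Xin the call of Rps9 was lost (1.69, adjusted p = 0.0522), as was that of the histone gene H3f3b given below (0.86, adjusted p = 0.0768). Of 93 nuclear respiratory chain genes, 66 (71%) were higher and 0 lower, among them Sdhaf4 (1.02 ± 0.27), Ndufv3-1 (0.99 ± 0.15) and Ndufv3-2 (0.89 ± 0.13). Their median log2 fold change was 0.46, and 0.29 with limma on mean CPM and 0.25 in the Tac1 range. The 13 mitochondrially encoded mRNA genes had 1 call each way, Mt-nd4l higher (0.60 ± 0.13) and Mt-co3 lower (-0.41 ± 0.13), the latter lost without S1 or any 1 labelled library (-0.39 to -0.30, adjusted p = 0.0700 to 0.115). Of 38 proteasome subunits, 29 (76.3%) were higher and 0 lower (median 0.53, and 0.37 with limma and 0.30 in the Tac1 range), with Psmb6 at 688 to 924 against 337 to 502 CPM (0.81 ± 0.12) and Psmd10 (0.84 ± 0.27) and Psmd9 (0.78 ± 0.28) beside it. The call of Psmd10 was lost without S3 or 10 (0.77 and 0.78, adjusted p = 0.0515 and 0.0707), and that of Psmd9 without S2, S3, S4, S5, Xin or 10 in turn (0.65 to 0.84, adjusted p = 0.0621 to 0.106). Of 22 histone genes, 10 (45.5%) were higher and 0 lower, with H1f4 (2.37 ± 0.32), H1f2 (2.33 ± 0.39) and H3f3b (1.14 ± 0.35) in front. Of 14 tubulin genes, a list drawn up after values were seen, 9 (64.3%) were higher and 1 (7.14%) lower. Tubb3, a neuronal tubulin, was at 3770, 2328, 2382 and 2105 CPM against 1060 to 1357 CPM (1.10 ± 0.14), and Tubb2a was higher by 1.06 ± 0.14.

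**Figure D4:**
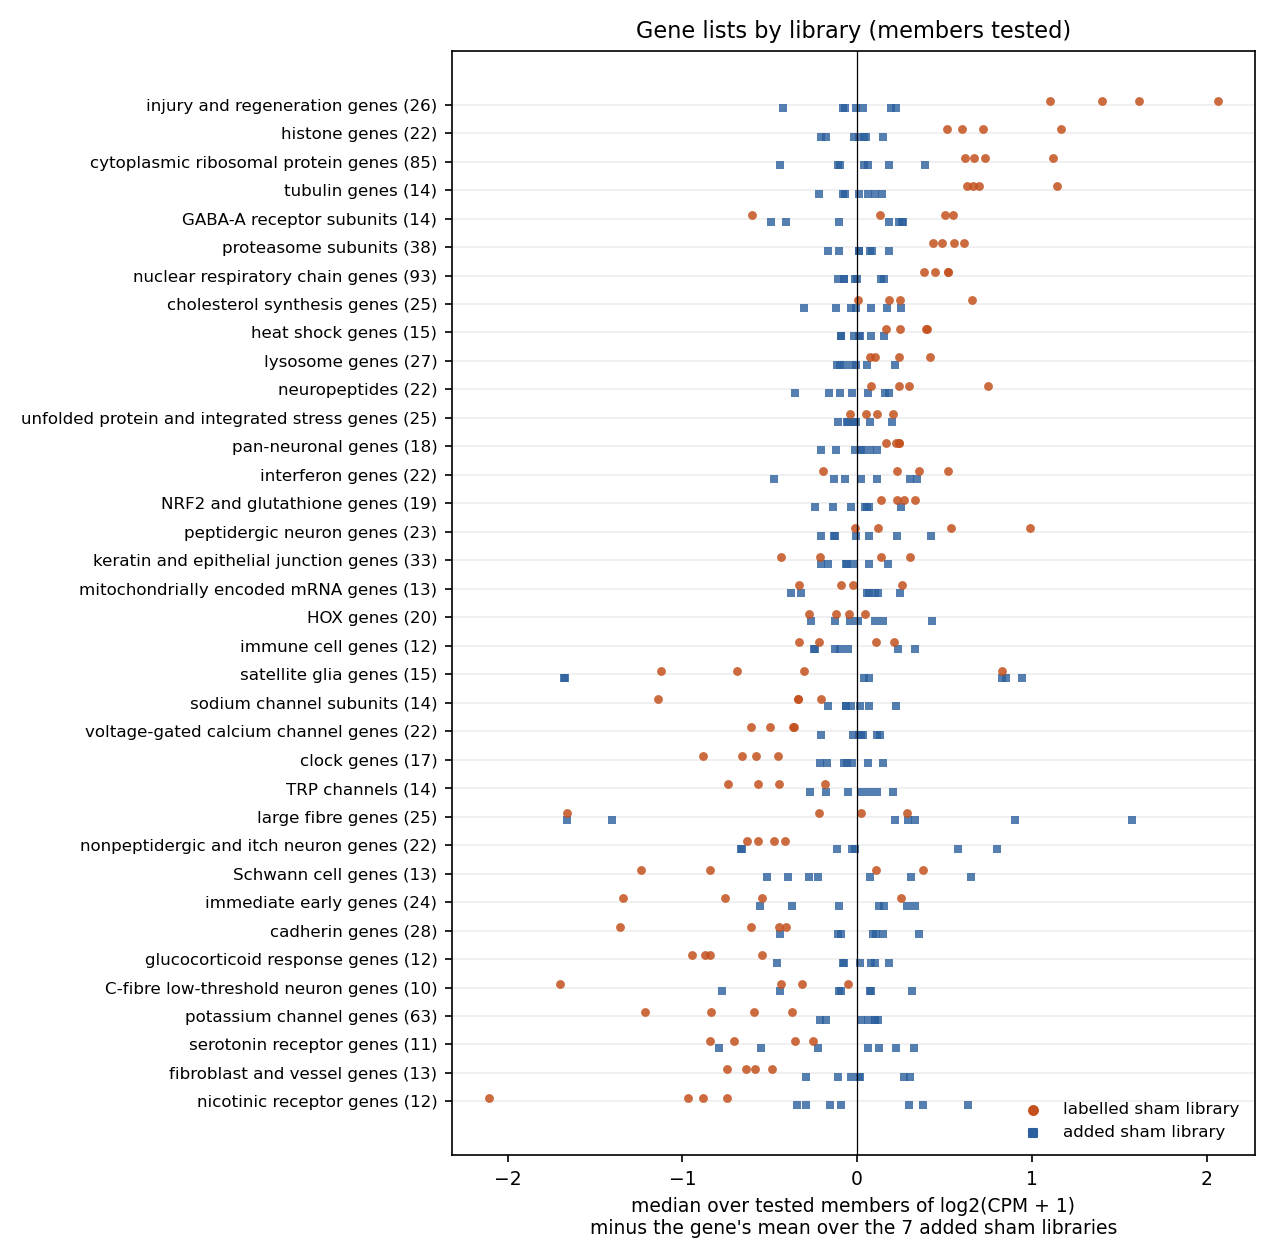
Each gene list by library (circles labelled sham, squares added sham), as the median over tested members of log2(CPM + 1) minus the gene's mean over the 7 added libraries (x axis), with the number of tested members in brackets. The injury, ribosomal protein, respiratory chain and proteasome lists of all 4 labelled libraries lie above the 7 added libraries and the potassium and sodium channel lists below them, while satellite glia and large fibre lists overlap.

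Stress and metabolic lists gave smaller or mixed results. Of 15 heat shock genes, 6 (40%) were higher and 2 lower. Hspb1, a small heat shock protein that neurons raise after axon injury, was at 3166, 1965, 1845 and 1856 CPM against 341 to 799 CPM (2.01 ± 0.22, adjusted p = 7.6e-05), and Hsp90aa1 was higher by 1.21 ± 0.44. The Hsp90aa1 call was lost without S2, S3, S4, S5, Xin or 10 in turn (1.02 to 1.28, adjusted p = 0.0538 to 0.114). Hspa1b, the inducible Hsp70, was lower, at 35.6 to 71.3 against 66.5 to 217 CPM (-1.12 ± 0.32, adjusted p = 0.0132), with overlap. That call was lost without library 4 (-0.94, adjusted p = 0.0541) and without library 10 (-0.93, adjusted p = 0.0604). The unfolded protein and integrated stress genes split 5 against 5 of 25, with Trib3 higher (1.24 ± 0.42) and Hyou1 (-1.14 ± 0.16) and Sesn2 (-1.12 ± 0.34) lower. The Trib3 call was lost without any one of S3 to S7 (1.13 to 1.23, adjusted p up to 0.0560) or Xin (0.61, adjusted p = 0.187), and that of Sesn2 without 4, 10 or 18 (-1.01 to -0.94, adjusted p = 0.0641 to 0.0806). Of 25 cholesterol synthesis genes, 10 (40%) were higher and 5 lower, led by Mvk (2.03 ± 0.52), Mvd (1.34 ± 0.42) and Acat2 (1.30 ± 0.33), of which Mvd was not called without library Xin (0.67, adjusted p = 0.133) and Mvk was then at 1.26 (adjusted p = 0.0477). Of 27 lysosome genes, 10 (37.0%) were higher and 4 lower. Cd63, a tetraspanin of late endosomes, was at 843, 256, 418 and 420 against 30.5 to 106 CPM (2.77 ± 0.34), Npc2 was higher by 0.85 ± 0.18, and the lipase gene Lipa was lower by -0.90 ± 0.15.

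Of 19 NRF2 and glutathione genes, 5 (26.3%) were higher and 1 (5.26%) lower. Gpx3 was higher by 2.84 ± 0.49 and the ferritin light chain gene Ftl1 by 1.57 ± 0.29, whereas Gclc, the first enzyme of glutathione synthesis, was lower by -1.87 ± 0.25. Of 22 interferon genes, 4 (18.2%) were higher and 1 (4.55%) lower. Mx2 was at 134 to 254 against 15.1 to 71.9 CPM (2.16 ± 0.41), Isg15 was higher by 1.80 ± 0.46 and Usp18 by 1.72 ± 0.40. Both lists had median changes close to 0 (0.11 and 0.12).

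Markers of other cells gave few calls for glia and more for fibroblasts and vessels. Of 15 satellite glia genes, 1 was called, Ptprz1, which was lower (-1.13 ± 0.33). Apoe, the most abundant of them, was at 818, 99.5, 113 and 200 CPM against 7.13 to 351 CPM (0.62 ± 0.83, adjusted p = 0.572), and Fabp7 at 3.26 to 22.4 against 4.48 to 25.1 CPM (-0.66 ± 0.60). The summed level of the satellite glia list was 479 to 1542 CPM in labelled and 318 to 1055 CPM in added sham, and Kcnj10, a defining marker, was at 0 in all 11 libraries. Of 13 Schwann cell genes, 1 was called, Pmp22, a protein of peripheral myelin, at 811 to 1108 against 430 to 716 CPM (0.63 ± 0.14). Mbp, of myelin, was at 233, 46.5, 50.0 and 82.6 against 40.8 to 139 CPM (0.72 ± 0.44, adjusted p = 0.210). Of 12 immune cell genes, 3 (25%) were higher and 1 (8.33%) lower, at sums of 22.0 to 65.7 and 17.9 to 46.1 CPM, with Cx3cr1 at 0. Of 13 fibroblast and vessel genes, 5 (38.5%) were lower and 1 (7.69%) higher, Igfbp7 (1.93 ± 0.34), at sums of 52.9 to 126 and 52.4 to 91.8 CPM, with Cldn5 at 0. Of 4 blood cell genes tested, 2 (50%) were lower, and their sum was at most 23.5 CPM. Among 18 pan-neuronal genes, 7 were higher, among them Tubb3, Tubb2a and Uchl1 (0.65 ± 0.13), and 3 lower, among them Syn1 (-0.94 ± 0.22). The part of glial RNA in the results was not tested.

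HOX genes, which record the body level of a neuron, had few calls. Whether the sets match in body level was not tested. Of 20 tested, 2 (10%) were higher and 1 (5%) lower, with a median log2 fold change of -0.14, and -0.67 over 11 members in the Tac1 range. Their summed level was 163 to 297 CPM in labelled and 276 to 390 CPM in added sham. Hoxc8 was lower (-1.58 ± 0.29), at 8.38 to 14.1 against 23.0 to 64.2 CPM, and Hoxc9 higher (0.42 ± 0.15, adjusted p = 0.0342). The call of Hoxc9 was lost without S3, S5, S6, 4, 10 or 18 in turn (0.37 to 0.45, adjusted p = 0.0520 to 0.0693). The second higher gene, Hoxd11, was at 1.10 to 5.59 against 0.178 to 1.40 CPM (1.67 ± 0.61), and it was lost without any one of S2 to S7 or Xin (0.83 to 1.71, adjusted p = 0.0570 to 0.261).

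The direction of change went with gene span, the distance from first to last base of a gene in RefSeq. Of 13745 tested genes with a name, 13438 (97.8%) had a span. In 5 groups of equal size, from the shortest to the longest, the median log2 fold change was 0.22, 0.04, -0.14, -0.36 and -0.53, and the share of calls that were higher was 67.8%, 51.1%, 37.1%, 24.8% and 17.2%. The shortest group spans 0.063 to 8.52 kb and the longest 79.8 to 2975 kb. The median span of the injury list was 9.03 kb. It was 3.13 kb for ribosomal protein genes, 7.18 kb for nuclear respiratory chain genes and 10.8 kb for proteasome subunits. For potassium, TRP, sodium and calcium channels it was 33.4, 83.1, 107 and 122 kb, and for cadherins 145 kb. Immediate early genes, at 3.61 kb, had a median change of -0.83 (-0.14 in the Tac1 range), and GABA-A subunits, at 82.8 kb, one of 0.60 (0.42 in the Tac1 range). Level moved with the change as well, from a median of -0.61 in the group of genes with the lowest mean level to 0.22 in the highest. The part of span and level in the calls of single genes and in the results of the lists was not tested.

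**Figure D5:**
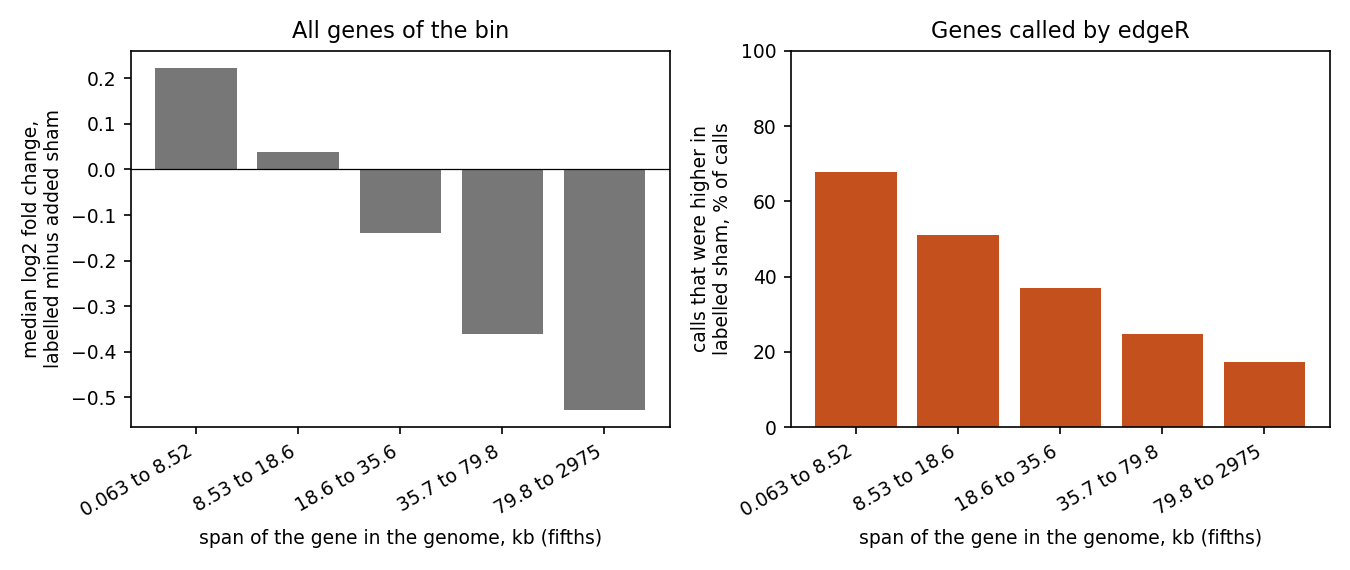
Bars give, for 5 equal groups of genes by span in kb (x axis), the median log2 fold change of labelled over added sham over all genes (left) and the percent of edgeR calls that were higher in labelled sham (right). The median falls from 0.22 in the shortest to -0.53 in the longest group, and the percent from 67.8 to 17.2.

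Depth differed between the sets. Labelled libraries had a median of 214057 ± 44398 UMIs per cell (SD, n = 4) and added libraries 335305 ± 81966 (SD, n = 7; exact permutation p = 0.0182, two-sided, adjusted p = 0.0323 over 4 measures). This difference missed the threshold without Xin, 4 or 10 (exact permutation p = 0.05). At 20000 UMIs per cell the number of genes was 5005 ± 99.1 (SD, n = 4) and 5496 ± 218 (SD, n = 7), without overlap (exact permutation p = 0.00606, adjusted p = 0.0242). The mitochondrial share was 1.31% ± 0.203 (SD, n = 4) and 1.44% ± 0.173 (SD, n = 7) with an exact permutation p of 0.309. With sums of cells thinned to 20000 UMIs, 1900 genes were higher and 2434 lower of 8907 tested. Restricted to the 3 added libraries at 0 days, 1177 were higher and 2233 lower of 14106 tested, and Sprr1a, Gal, Csrp3, Atf3, Gap43 and Scn10a kept their calls in that fit. In it 19 named calls missed the threshold, among them Etv1 (-1.77, adjusted p = 0.0711), Kcna2 (-1.58, adjusted p = 0.120), Npc2, Pmp22, Acat2, Mvk, Ptprz1, Rps10l1 and Basp1, and Tac1 was called higher (2.13, adjusted p = 0.0145).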

How the data were processed

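Cell by gene tables of UMI counts were used as deposited. Per the labels and the study's methods, the authors split reads by barcode, trimmed template-switch and poly(A) sequence, aligned with STAR 2.7.3b to the rat build Rnor_6.0, assigned genes with featureCounts of Subread and counted molecules with UMI-tools and SAMtools. Versions of the other tools were not given in the sources used here. The deposited counts are raw, with 32883 genes per file, of which 32881 are in all files. No strand setting was given, so antisense and overlapping genes are uncertain.

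Cells were filtered as described and summed per library. Genes passing filterByExpr were tested with edgeR 4.0.16 (quasi-likelihood, TMM, R 4.3.3), with Benjamini-Hochberg adjustment over all tested genes at 0.05. DESeq2 1.42.0 and limma 3.58.1 (log2 of mean CPM + 1) served as alternatives. CPM are normalized by TMM over the 11 libraries, and intervals were not drawn on them. Library values were compared by two-sided exact permutation of 4 against 7 libraries (330 splits, smallest p 0.00606). Doublets were not called, since cells were picked by hand. The fit was tested on simulated data.

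Members and lists were chosen with earlier results of these data known. Named genes were the 12 with the largest change in each direction among genes called, without overlap and at 20 CPM or more in the higher group, up to 3 called genes of each list with 10 CPM or more, and a set list of marker genes. Nuclear RNA genes had 1 tested member and no call. Malat1 was not analysed here, and 2 genes that met the rule are not reported here. The following genes were chosen after their values were seen: Vip, Reg3b, Stmn4, Gadd45a, Tgfbi, Tspo, Cacna2d1, Nptx2, Jund, Dusp1, Scn9a, Kcna4, Kcnd3, Gfra3, Osmr, Nppb, Uchl1, Eno2, Gpx4 and Hoxd11, as were the lists of potassium and calcium channels, tubulins, annexins, nicotinic, serotonin and GABA-A receptors, cadherins and keratins. Rps6k kinases were left out of the ribosomal list. Of the lists not described above, 3 of 9 annexins (33.3%) were higher, and 2 of 14 GABA-A subunits (14.3%) were higher and 2 (14.3%) lower. Among 11 serotonin receptors 1 (9.09%) was higher and 2 (18.2%) lower. Among 33 keratin and epithelial junction genes 7 (21.2%) were higher and 5 (15.2%) lower. Promoter letters were searched in 27457 RefSeq windows (GRCr8), and gene spans are from the same reference.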

Additional observations from a re-analysis of the deposited data

Results flagged for a closer look

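In 224 groups of 4 or 7 library values, 31 held a library whose gap to the nearest other exceeded Dixon's 95% limit, and chance alone flags about 1 in 20 groups. The cause was not tested. Xin, the labelled library with the fewest UMIs, was flagged 14 times. It was the highest labelled library for Stac2 (172 CPM), Ucn (168), Il24 (99.5), Hspb1 (3166), Trib3 (69.6), Sesn2 (18.7), Npc2 (494), Pdyn (38.0), Tubb3 (3770) and Apoe (818), and for the share of cells low in Nefh and Tac1 (54.2%). It was the lowest for Kcna3 (0.838), Nr1d2 (4.75) and Hoxc9 (42.2). Of the other labelled libraries, 18 was the highest for Hyou1 (67.0), Mt2A (28.6), Klf9 (64.0) and Cd9 (332), and 4 was the lowest for Sdhaf4 (77.7) and Adcyap1 (160).

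Among added libraries S4, in which every cell was in the Nefh range, was the highest for Sesn2 (45.9 CPM), Nr1d2 (87.6), Etv1 (434), Hoxc8 (64.2) and Mbp (139), and the lowest for Mt-nd4l (210) and Fos (78.8). S1 was the highest for Cldn4 (4.04) and Hspa1b (217), S5 for Gal (21.5) and S7 for Sprr1a (0.206).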

How the results depend on the processing

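The counts of 2599 genes higher and 3816 lower became 3173 and 4064 with DESeq2, 2902 and 3560 with its size factors and 2359 and 3606 without a filter on low counts. Of the 6415 calls, 6316 were also made by DESeq2 in the same direction and 0 in the other. Counts moved by over 1.5 times with added libraries at 0 days only (1177 higher, 2233 lower), with thinned cells (2434 lower) and in the Tac1 range (401 higher, 1203 lower), where 1 gene, Kcnip1, was called the other way. These fits hold fewer libraries, counts or cells. Leaving out 1 library at a time gave 2230 to 2820 higher and 2800 to 3744 lower. Alternatives chosen after seeing the data gave 2837 and 3729 without S1 and S2, and 2808 and 3818 without Xin, S1 and S2. Of 2633 alternative values of called named genes, 2452 kept their call and 175 missed the threshold in the same direction. The remaining 6 turned sign without a call: Sesn2 (0.42) in the range low in both markers, and Isg15 (-0.69), Hoxc9 (-0.13), Sox11 (-0.41), Kcnd3 (0.28) and Nppb (-0.25) in the Tac1 range. The cause was not tested.

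Among genes that were not called, 42 alternative values had the other sign. Cd9 turned to -0.0392 with ribosomal and transfer RNA in the mitochondrial share, -0.18 against days 1 to 7, -0.00699 without a filter, -0.71 in the Nefh range, -0.25 in the Tac1 range, -0.41 without S1 and S2, -0.29 without Xin, S1 and S2, and negative without 18, S1, S2 or S4, within a range of -0.29 to 0.33 over all single libraries left out. Fos turned to -0.0831 against 0 days, -0.0825 with limma, -0.0031 in thinned cells, -0.39 in the Nefh range, -0.66 in the range low in both, -0.13 without Xin, S1 and S2, and was -0.20 (without Xin) to 0.38 without single libraries. Sst turned to -0.23 against days 1 to 7, -0.44 in thinned cells, -1.26 with limma, -1.52 in the Nefh range, -1.43 in the Tac1 range, -0.12 without S7, and was -0.76 (without 18) to 0.41 without single libraries. Calca turned to -0.28 with limma, -0.19 in the Nefh range, -0.0645 in the range low in both and -0.0327 in the Tac1 range, and was -0.19 (without 18) to 0.61 without single libraries. Nefh turned to 0.44 against 0 days, 0.35 in the range low in both (adjusted p = 0.0493 in edgeR) and 0.0888 in the Tac1 range. Both ranges were cut by the cells' own Nefh, which bounds it there, so the values and the p within them decide nothing about Nefh. Apoe turned to -0.80 in the Nefh range, -0.93 without Xin, S1 and S2 (adjusted p = 0.0158 in edgeR), and was -0.48 (without Xin) to 0.95 without single libraries. Fabp7 turned to 0.32 in the range low in both, Mbp to -0.33 in the Tac1 range and -0.12 without Xin, S1 and S2, and Scn9a to 0.0053 without those 3. Tac1 turned to -0.17 in the Tac1 range, which was cut by Tac1 itself.

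The difference in UMIs per cell (labelled minus added) was -140316 to -95122 without single libraries and -137068 against 0 days, that in genes per cell -1393 to -1035 and -944.5, that in thinned genes per cell -551 to -455 and -369, and that in mitochondrial share -0.175 to -0.0294 percentage points. The differences against 0 days, with a smallest possible exact p of 0.0571, passed no test, and without Xin, 4 or 10 the exact permutation p was 0.05 for UMIs and 0.05 to 0.0667 for genes per cell. The share of cells in the Nefh range differed by -10.2 to 8.37 points without single libraries, turning positive without Xin, S3, S4 or S7 (8.37, 2.44, 5.74 and 1.92), 23.2 points against 0 days and 6.42 points at a limit of 250 CPM. That in the Tac1 range differed by 11.6 to 20.3 points without single libraries, 15.8 against 0 days and 2.13 at 250 CPM, and its exact permutation p rose to 0.05 without Xin, 10 or 18. That low in both differed by -24.5 to -6.57 points without single libraries, 3.93 without S1 and S2 and 2.38 at 1000 CPM. No paired analysis was possible because the labels give the sets no shared replicate numbers.

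Low counts limit genes such as Sprr1a and Crisp3, whose folds rest on 6 UMIs each in added sham, and 64 genes called lower had no UMI in any labelled library. With 4 against 7 libraries and no library linking the sets, the batch, the dye injection and the choice of cells cannot be told apart.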
